A study of Mus musculus with 6 samples.

Results

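The miR-17-92 cluster and its paralogs, miR-106b-25 and miR-106a-363, were followed through 10 mature miRNAs carried by exosomes from mouse serum. The members were taken by name and not by their values, although earlier results of these data were known. All 10 were among the 1982 rows of the deposited count table. They are mmu-miR-17-5p, mmu-miR-18a-5p, mmu-miR-19a-3p, mmu-miR-19b-3p, mmu-miR-20a-5p and mmu-miR-92a-3p of miR-17-92, mmu-miR-106b-5p, mmu-miR-93-5p and mmu-miR-25-3p of miR-106b-25, and mmu-miR-363-3p of miR-106a-363. All mice were C57BL/6 males, 3 months old. The 3 Acu/LFES mice had electrical stimulation through acupuncture needles in the hindlimb for 30 min, once, and the 3 sham mice had needles near the same positions, connected but without current. Each mouse gave 1 small RNA library from exosomes, the small vesicles that cells shed into blood, and mice are numbered 1 to 3 for sham and 4 to 6 for Acu/LFES. The time between treatment and blood collection is not given in the sources used here. Several organs and blood cells release exosomes into serum, so fewer vesicles of a given source and less miRNA per vesicle cannot be told apart.

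A miRNA cluster is a row of hairpins that are cut from the same long transcript. Each hairpin can yield a mature miRNA from either arm, and the arm that is kept is loaded into Argonaute, where bases 2 to 8, the seed, select target mRNAs. miR-17-92 is known as an oncogenic cluster that is driven by Myc, restrains Bim (Bcl2l11), and is needed for lung, heart and B cell development. miR-106b-25 sits in Mcm7, a replication licensing gene, and shares targets such as Cdkn1a and E2f1 with it. Members of both clusters are abundant in the red cell lineage and are regularly found in blood.

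The 10 mature sequences fall into 4 seed groups, which cut across the clusters. They are shown to make clear which members can act on the same sites and which differ by so few bases that their reads could be exchanged. The sequences are RefSeq entries for GRCm38.p6, matched by name for 10 of the 10 members, and capitals mark the seed.
miR-17-5p: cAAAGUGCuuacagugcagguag
miR-20a-5p: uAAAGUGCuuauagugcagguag
miR-106b-5p: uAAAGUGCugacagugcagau
miR-93-5p: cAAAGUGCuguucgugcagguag
miR-18a-5p: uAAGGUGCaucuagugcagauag
miR-19a-3p: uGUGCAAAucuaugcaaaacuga
miR-19b-3p: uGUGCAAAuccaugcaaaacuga
miR-92a-3p: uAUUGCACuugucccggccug
miR-25-3p: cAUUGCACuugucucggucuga
miR-363-3p: aAUUGCACgguauccaucugua

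Positions are counted from 1 at the 5′ end, and each change gives the base of the miRNA that follows "from" before the position and that of the other miRNA after it. miR-20a-5p differs from miR-17-5p by C1U and C12U, and miR-93-5p differs from miR-17-5p by U10G, A11U, C12U and A13C. miR-106b-5p differs from miR-17-5p by C1U, U10G and G20A over the 21 bases that both have. miR-19a-3p differs from miR-19b-3p by C11U alone. miR-25-3p differs from miR-92a-3p by U1C, C14U and C18U over 21 bases, whereas miR-363-3p shares little more than the seed with miR-92a-3p and differs from it at 11 of the 21 positions. The miR-106a-363 cluster also encodes miR-106a-5p, which differs from miR-17-5p by U10A, and miR-20b-5p, which differs by U10C and C12U. The sources used here do not state how many mismatches the counting allowed, so the split of reads between such neighbors is uncertain.

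On GRCm38 the miR-17-92 hairpins span 836 bases of chromosome 14, from 115043671 to 115044506 on the plus strand, and all 6 lie in an exon of the noncoding gene Mir17hg in the GENCODE M21 annotation. The 3 hairpins of miR-106b-25 span 498 bases of chromosome 5, from 138165321 to 138165818 on the minus strand, in introns of Mcm7. Mir25 and Mir93 also overlap an exon in 1 further Mcm7 transcript. The 6 hairpins of miR-106a-363 span 875 bases of chromosome X, from 52741693 to 52742567 on the minus strand, and no annotated transcript other than their own covers them. miR-19b-3p and miR-92a-3p each come from 2 loci, Mir19b-1 and Mir92-1 on chromosome 14 and Mir19b-2 and Mir92-2 on chromosome X. Their counts are given with miR-17-92 but could include molecules from miR-106a-363.

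Library totals ranged from 391708 to 1504137 counts. Levels are given as CPM, the count divided by the library total and edgeR's TMM factor and scaled to 1e6. The factor was lowest for sham mouse 2 (0.651) and highest for Acu/LFES mouse 6 (2.12). In mouse 6, miR-486a-5p and miR-486b-5p, listed with identical counts, took 29.2% of all counts against 61.7% to 74.0% in the other mice. The 259 miRNAs that passed edgeR's default filter on low counts were tested by its quasi-likelihood method with Benjamini-Hochberg adjustment. A positive log2 fold change means more with Acu/LFES, and values after ± are SDs over the 3 mice of a group. Whether mice were handled in batches is not given in the sources used here, so the p-values take no account of batches. Those of edgeR weigh the group difference against the spread between these mice, estimated in part from all miRNAs tested.

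The clusters were represented mainly by the miR-92 seed. miR-25-3p and miR-92a-3p ranked 3 and 6 of all rows by mean CPM, and miR-93-5p ranked 19. Mean levels over the 6 mice were 43330 CPM for miR-25-3p, 22400 CPM for miR-92a-3p and 5626 CPM for miR-93-5p, and this order held in 6 of 6 mice. Then came miR-20a-5p with 314 CPM, miR-17-5p with 235 CPM, miR-19b-3p with 187 CPM and miR-106b-5p with 112 CPM. These neighbors were not clearly ordered, since miR-20a-5p was above miR-17-5p in 5 of 6 mice, and miR-17-5p was above miR-19b-3p in 4 of 6. miR-18a-5p, at 31.2 CPM, and miR-19a-3p, at 22.4 CPM, also changed places, with miR-18a-5p higher in 2 of 6 mice. The mature forms are 21 to 23 bases long, so their CPM can be set side by side without a length correction, although adapter ligation favors some ends over others.

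**Figure D1:**
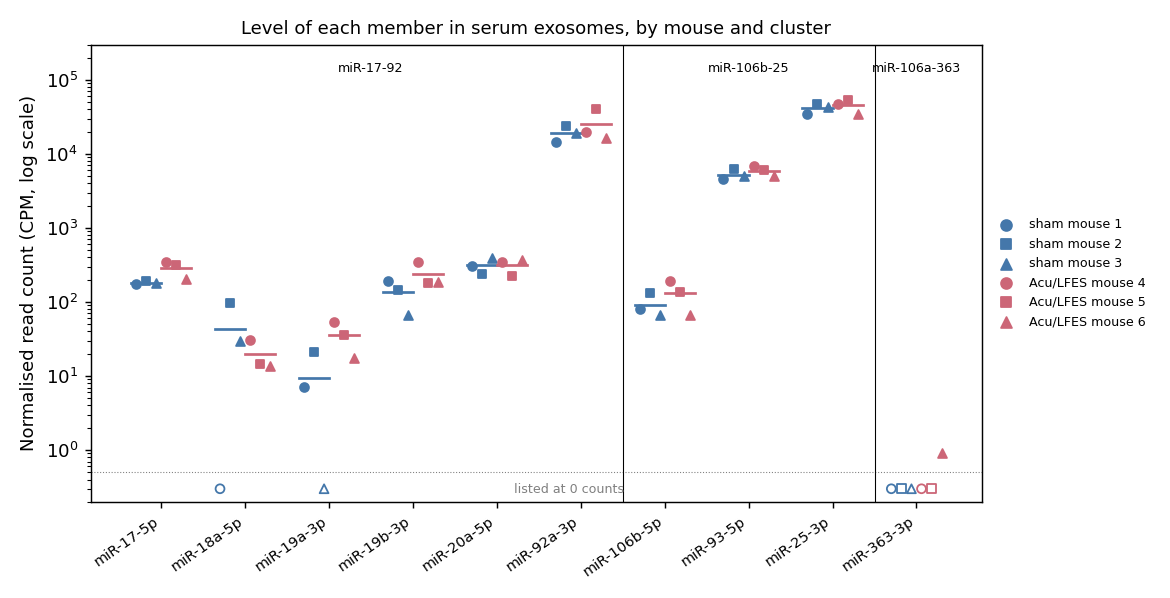
Normalised read count of the 10 members (CPM on a log axis), with 1 point for each mouse, horizontal lines at group means (not drawn for miR-363-3p) and open symbols for members listed at 0 counts. miR-25-3p and miR-92a-3p lie at 14680 CPM or more in every mouse, and miR-363-3p has 1 count in mouse 6 and none elsewhere.

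Members of the same cluster therefore differed widely in level. The shares that follow are of the listed members' counts and leave out the opposite arms, among them miR-106b-3p, the more abundant arm of Mir106b. Within miR-17-92, miR-92a-3p was 71.3 times as abundant as miR-20a-5p, the next member. It made up 96.4 ± 0.83% of the counts of the 6 members with sham and 96.1 ± 1.83% with Acu/LFES. Within miR-106b-25, miR-25-3p was 388 times as abundant as miR-106b-5p. It took 88.5 ± 0.64% of the counts of the 3 members with sham and 88.0 ± 1.46% with Acu/LFES, and miR-93-5p took most of the remainder, with 11.3 ± 0.58% and 11.8 ± 1.44%. By seed, miR-25-3p, miR-92a-3p and miR-363-3p together held 90.9 ± 0.60% of the members' counts with sham and 90.7 ± 2.16% with Acu/LFES. The AAAGUGC seed of miR-17-5p held 8.84 ± 0.50% and 8.95 ± 2.01%. Acu/LFES mouse 5 was lowest for the AAAGUGC seed, with 6.64% (95% exact binomial interval 6.42% to 6.87%), and mouse 4 highest, with 10.2% (10.1% to 10.4%). Both are Acu/LFES mice, and the 3 sham mice lay between them. These intervals cover counting error only, since PCR copies are not independent molecules.

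No member passed the test between sham and Acu/LFES mice. Of the 9 members that could be tested, 8 had a positive log2 fold change, among them miR-20a-5p at 0.01, and 1 a negative one. Over all 259 miRNAs, 137 were positive and 122 negative. The median was 0.41 for the members, against 0.05 over all 259. No member had an unadjusted p under 0.05 in either direction, where 5.79% of all miRNAs tested were higher and 3.09% lower at that level. At an adjusted p under 0.05 the share was 0% of all miRNAs tested, and the smallest adjusted p among the members was 0.57 in edgeR's quasi-likelihood test. The group medians were 0.54 for the 6 members of miR-17-92 and 0.18 for the 3 of miR-106b-25. A single member, miR-17-5p, had groups that did not overlap, against 8.88% of all miRNAs tested with every Acu/LFES mouse higher and 8.11% with every one lower. 1 in 9 is close to that background.

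**Figure D2:**
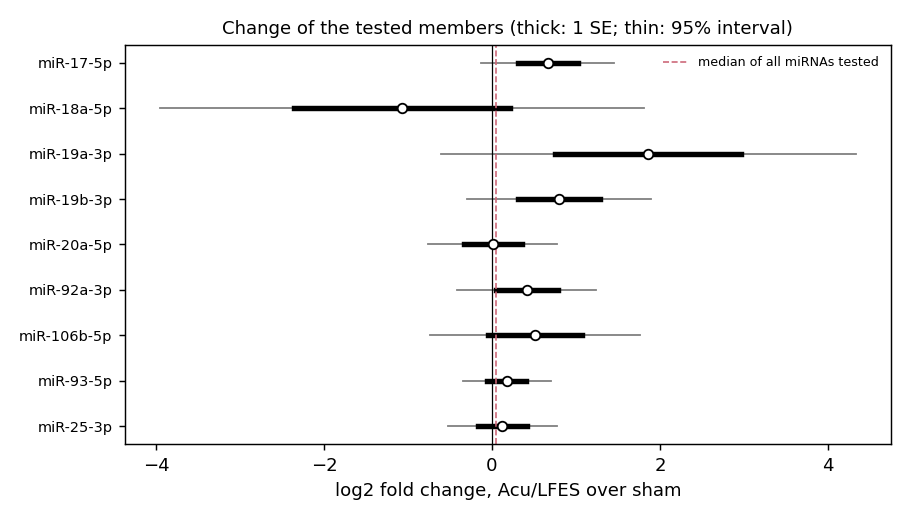
Log2 fold change of Acu/LFES over sham for the 9 tested members, with 1 standard error (thick line) and the 95% interval (thin line) from edgeR, and the median of all 259 miRNAs as a dashed line. Every thin line crosses 0, and those of miR-18a-5p and miR-19a-3p are the widest.

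Of the AAAGUGC seed group, miR-17-5p, the founding member of its cluster, was at 174, 191 and 178 CPM in sham mice 1, 2 and 3 and at 344, 316 and 204 CPM in Acu/LFES mice 4, 5 and 6. Its sham values lay within a narrow range and each Acu/LFES mouse was above them, mouse 6 by little. The means were 181 ± 8.80 and 288 ± 73.7 CPM, a log2 fold change of 0.67 with a 95% interval from -0.13 to 1.46 (adjusted p = 0.57 in edgeR's quasi-likelihood test). Its unadjusted p was 0.0903. Without mouse 6, the Acu/LFES mouse nearest to sham, the log2 fold change was 0.90 and the unadjusted p of edgeR's test was 0.0395 (adjusted p = 0.669). Without mouse 4 the log2 fold change was 0.52. With any mouse but mouse 6 left out, the unadjusted p of edgeR's test ranged from 0.105 to 0.224.

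miR-20a-5p, which lies between Mir19a and Mir19b-1 and has the same seed, had a log2 fold change of 0.01. It stood at 310, 238 and 393 CPM in mice 1 to 3 (sham) and at 352, 227 and 366 CPM in mice 4 to 6 (Acu/LFES). The groups overlapped fully, with means of 314 ± 77.7 and 315 ± 76.7 CPM and a 95% interval of the log2 fold change from -0.76 to 0.78. A change within that interval could not be resolved with these mice. The log2 ratio of miR-20a-5p to miR-17-5p overlapped between the groups (exact permutation p = 0.3), so a difference between their changes was not shown.

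The same seed is carried by miR-93-5p and miR-106b-5p of the Mcm7 cluster. miR-93-5p was at 4570, 6198 and 5072 CPM in mice 1 to 3 (sham) and at 6849, 6003 and 5063 CPM in mice 4 to 6 (Acu/LFES). The groups overlapped, and the log2 fold change of 0.18 had the smallest standard error of the members, 0.23, with an interval from -0.34 to 0.70. It lay between 0.08 and 0.33 with a mouse left out, lowest without mouse 4 and highest without mouse 6. miR-106b-5p was at 79.3, 131 and 66.1 CPM in mice 1 to 3 (sham) and at 192, 135 and 67.5 CPM in mice 4 to 6 (Acu/LFES), so that mouse 6 was among the sham values. Its log2 fold change was 0.51 with a standard error of 0.56, and it was 0.15 without mouse 4, 0.88 without mouse 6 and 0.85 without sham mouse 2. Added up, the 4 members with this seed came to 5867 ± 824 CPM with sham and 6706 ± 1018 CPM with Acu/LFES, and the groups overlapped.

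The miR-92 seed group holds the abundant members. miR-25-3p was at 34640, 47080 and 42690 CPM in mice 1 to 3 (sham) and at 47370, 53240 and 34950 CPM in mice 4 to 6 (Acu/LFES). The lowest mouse of each group, mouse 1 and mouse 6, lay close together, and the log2 fold change was 0.12, with an interval from -0.53 to 0.77. It lay between 0.03 and 0.33 with a mouse left out, lowest without mouse 5 and highest without mouse 6. miR-92a-3p was at 14680, 23780 and 19170 CPM in mice 1 to 3 (sham) and at 19990, 40460 and 16310 CPM in mice 4 to 6 (Acu/LFES). Mouse 5 alone was above the sham range. The log2 fold change of miR-92a-3p was 0.41 (interval -0.41 to 1.24), and without mouse 5 it was -0.04. The sum of the seed group was 60680 ± 10820 CPM with sham and 70780 ± 21430 CPM with Acu/LFES, with overlapping groups.

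miR-363-3p, the last hairpin of the X-linked cluster, was listed at 0 counts in 5 mice and at 1 count in Acu/LFES mouse 6. A count of 0 allows up to 3 counts, which is 9.91 CPM in sham mouse 3, the library with the highest limit, and 1.80 CPM in mouse 4, the one with the lowest. It was not detectable at this depth in 5 of 6 mice and was not tested.

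The miR-19 seed group was rare. miR-19b-3p was at 195, 147 and 66.1 CPM in mice 1 to 3 (sham) and at 348, 179 and 188 CPM in mice 4 to 6 (Acu/LFES). miR-19a-3p had 5, 9 and 0 counts in mice 1 to 3 (sham) and 89, 17 and 19 in mice 4 to 6 (Acu/LFES), which is 7.21, 21.0 and 0 CPM against 53.3, 35.4 and 17.3 CPM. Mouse 4 was highest for both, and both had overlapping groups. The log2 fold changes were 0.80 with a standard error of 0.49 for miR-19b-3p and 1.86 with 1.11 for miR-19a-3p, and the adjusted p of each was 0.681 in edgeR's quasi-likelihood test. miR-19b-3p went to 0.42 without mouse 4, to 0.52 without sham mouse 3 and to 1.21 without sham mouse 1, and miR-19a-3p to 3.02 without sham mouse 2. The sum of the pair was at 202, 168 and 66.1 CPM in mice 1 to 3 (sham) and at 402, 214 and 205 CPM in mice 4 to 6 (Acu/LFES). These sums did not overlap, although sham mouse 1 and Acu/LFES mouse 6 lay close together, and a sum of chosen members was not tested.

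miR-18a-5p, the only member with its seed, had 0, 42 and 9 counts in mice 1 to 3 (sham) and 52, 7 and 15 in mice 4 to 6 (Acu/LFES). The range within the sham group, from 0 to 98.0 CPM, enclosed every Acu/LFES value. Its log2 fold change of -1.07 had a standard error of 1.29 and turned to 0.53 without sham mouse 2.

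Counts of the opposite arms were examined next, since the arm that is kept is a fixed property of most hairpins. Of 12 opposite arms listed for the members, 6 had any count and 5 could be tested, and none of these had an unadjusted p under 0.05. The 5p arm exceeded the 3p arm for Mir17 and Mir93 in every mouse, and the 3p arm exceeded the 5p arm for Mir25 in every mouse. The median ratio was 8.78 for miR-17-5p over miR-17-3p, 98.6 for miR-93-5p over miR-93-3p and 1490 for miR-25-3p over miR-25-5p, with 0.5 added to each count. miR-93-3p had 57, 37 and 12 counts in sham mice 1 to 3 against 11, 36 and 8 in Acu/LFES mice 4 to 6, with a log2 fold change of -1.29 and a standard error of 1.03. miR-25-5p had 57, 45 and 8 against 54, 11 and 14 counts, with a log2 fold change of -1.65, a standard error of 0.81 and, by edgeR, adjusted p = 0.568.

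For Mir106b the abundant arm was the one that is not among the members. miR-106b-3p, the arm outside the member list, had 868, 1090 and 500 counts in mice 1 to 3 (sham) and 3329, 1379 and 1284 in mice 4 to 6 (Acu/LFES). The listed arm, miR-106b-5p, had 55, 56 and 20 counts in mice 1 to 3 (sham) and 321, 65 and 74 in mice 4 to 6 (Acu/LFES). The 3p arm was thus above the 5p arm in 6 of 6 mice, with a median ratio of 18.2. In CPM, miR-106b-3p was at 1815 ± 661 with sham and 2010 ± 848 with Acu/LFES, with a log2 fold change of 0.15 and a standard error of 0.36. Its sequence, shown because its seed in capitals belongs to none of the 4 groups above, is also from RefSeq.
miR-106b-3p: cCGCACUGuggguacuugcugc

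Mir18 showed no fixed arm. miR-18a-3p had 27, 31 and 0 counts in mice 1 to 3 (sham) and 111, 39 and 95 in mice 4 to 6 (Acu/LFES), so the log2 ratio of the 5p to the 3p arm ran from -5.78 in sham mouse 1 to 4.25 in sham mouse 3. In all 3 Acu/LFES mice the 3p arm was the larger, as it was in sham mouse 1, and the groups overlapped (exact permutation p = 0.7). The log2 arm ratio of Mir17 was 2.37 ± 0.73 with sham and 4.02 ± 0.94 with Acu/LFES and did not overlap. The two-sided exact permutation test gave p = 0.1, the smallest that 3 mice against 3 allow, and 0.333 after Benjamini-Hochberg adjustment over the 5 hairpins. miR-17-3p, the arm it was divided by, had between 4 and 58 counts per mouse, and the same miR-17-5p counts that separated in CPM enter the ratio. For the other hairpins the groups overlapped. Mean log2 differences, member over opposite arm, were 2.25 for Mir93, 1.64 for Mir25, -1.67 for Mir18 and 0.32 for Mir106b, against 1.65 for Mir17.

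**Figure D3:**
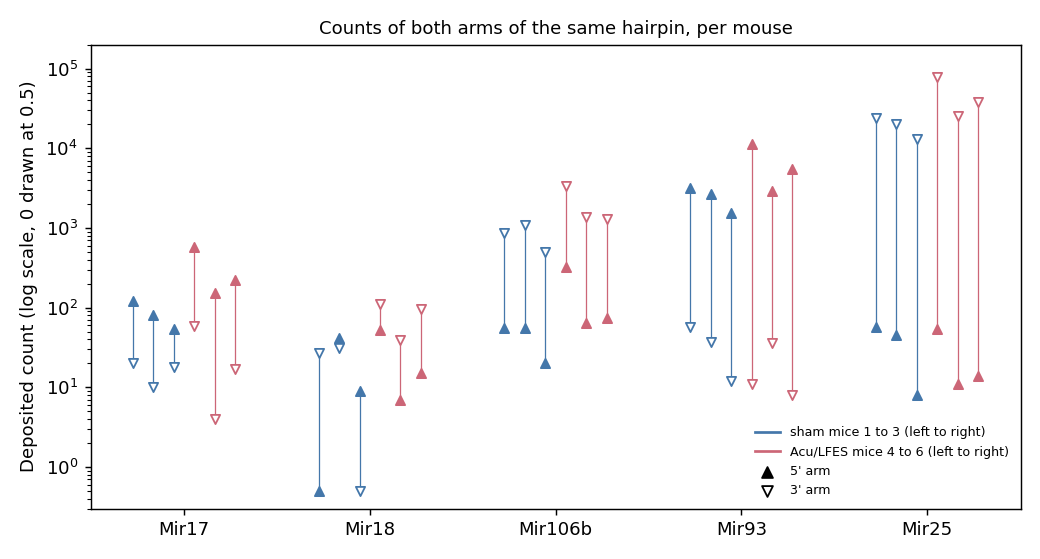
Deposited counts of the 5p arm (filled) and the 3p arm (open) of 5 hairpins on a log axis, joined for each mouse, with 0 drawn at 0.5. Mir106b and Mir25 have the 3p arm on top in all 6 mice, Mir17 and Mir93 the 5p arm, and Mir18 both orders.

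The other products of the X-linked cluster were scarce as well. miR-20b-5p had 0, 6 and 1 counts in mice 1 to 3 (sham) and 40, 6 and 40 in mice 4 to 6 (Acu/LFES), miR-106a-5p had between 2 and 17 counts in each mouse, and miR-18b-5p had 6 at most. None of the 6 further rows of this cluster passed the filter on low counts. Outside the clusters, the miR-92 seed also occurs in miR-92b-3p, which differs from miR-92a-3p by U10C and G21C over 21 bases. miR-92b-3p was at 166 ± 43.9 CPM with sham and 155 ± 29.0 CPM with Acu/LFES, with a log2 fold change of -0.11 and a standard error of 0.41. miR-32-5p, with the same seed, had 4 counts, all in mouse 4.

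Ratios between members of the same library need no scaling, and 8 of them were put to a two-sided exact permutation test, with 0.5 added to the counts. The log2 ratio of miR-93-5p to miR-17-5p was 4.71, 5.01 and 4.82 for mice 1 to 3 (sham) against 4.32, 4.24 and 4.63 for mice 4 to 6 (Acu/LFES). It was the only ratio of the 8 whose groups did not overlap. The Acu/LFES mean minus the sham mean was -0.45 (exact permutation p = 0.1, the smallest possible, and 0.8 after Benjamini-Hochberg adjustment over the 8 ratios), and the same miR-17-5p counts that separated in CPM enter it. miR-25-3p and miR-92a-3p, the paralogs with the miR-92 seed, had a log2 ratio between 0.99 and 1.24 in sham mice. The ratio was 1.25 and 1.10 in Acu/LFES mice 4 and 6 and 0.40 in mouse 5, so that the mean difference of -0.21 turned to 0.05 without mouse 5.

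The sums of the clusters are made up mostly of miR-25-3p and miR-92a-3p, so their ratio largely repeats the one above and is no separate result. The log2 ratio of the miR-106b-25 members to the miR-17-92 members was 1.25 ± 0.12 with sham and 1.04 ± 0.45 with Acu/LFES (exact permutation p = 0.7), and the difference of -0.21 turned to 0.05 without mouse 5. The log2 ratio of miR-93-5p to miR-25-3p, neighbors in Mcm7, stayed between -3.15 and -2.79 in all 6 mice. The rarer miR-106b-5p, also in Mcm7, went from 0.138% of the counts of the miR-106b-25 members in sham mouse 3 to 0.353% in mouse 4. miR-20a-5p to miR-17-5p, both from Mir17hg, ran from -0.48 to 1.13. Both had between 54 and 588 counts per mouse, against 1535 or more for miR-93-5p and miR-25-3p. The remaining ratios overlapped between the groups, and their exact permutation p ranged from 0.2 to 1.

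**Figure D4:**
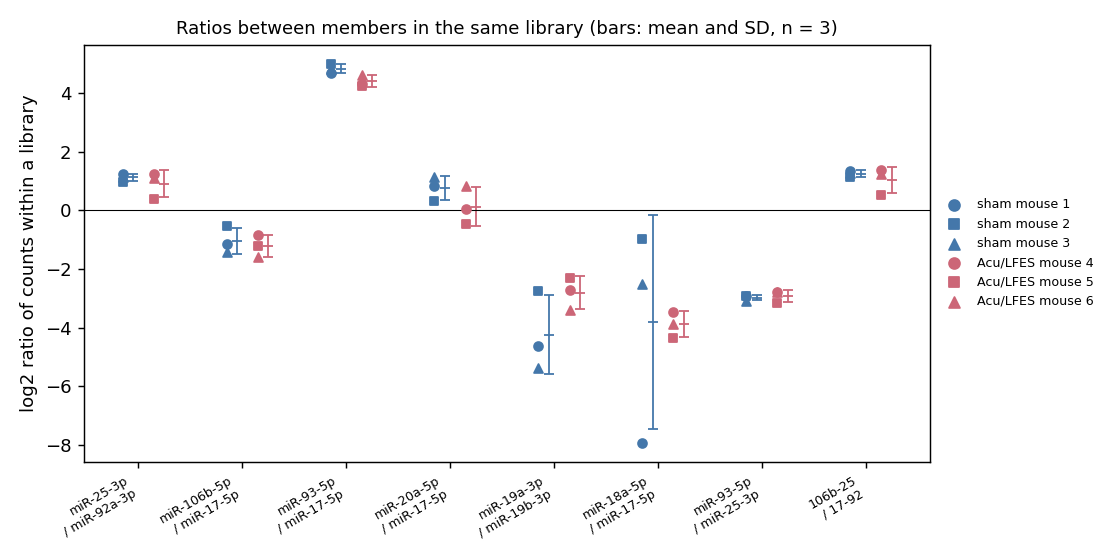
Log2 ratio of the counts of 8 pairs within a library, 1 point per mouse, with bars for the group mean and SD (n = 3 each) and 0.5 added to each count. miR-93-5p over miR-25-3p varies least, ratios with miR-18a-5p or miR-19a-3p vary most, and mouse 5 is lowest for miR-25-3p over miR-92a-3p.

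The share of a library taken by the members depended on what it was a share of. The 10 members made up 6.07%, 5.07% and 5.23% of all counts for mice 1 to 3 (sham) against 8.39%, 7.67% and 12.1% for mice 4 to 6 (Acu/LFES), and the groups did not overlap. Once both miR-486 rows were removed from the total, the share was 15.9%, 19.5% and 18.1% for mice 1 to 3 (sham) against 22.0%, 28.9% and 17.1% for mice 4 to 6 (Acu/LFES), and the groups overlapped, with mouse 6 between sham mice 1 and 3. Fold changes moved with the scaling too. Under total counts the median of all miRNAs was 0.71 in place of 0.05, and relative to that median the log2 fold change was 0.20 for miR-92a-3p, 0.10 for miR-93-5p, 0.00 for miR-25-3p and 0.50 for miR-17-5p.

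**Figure D5:**
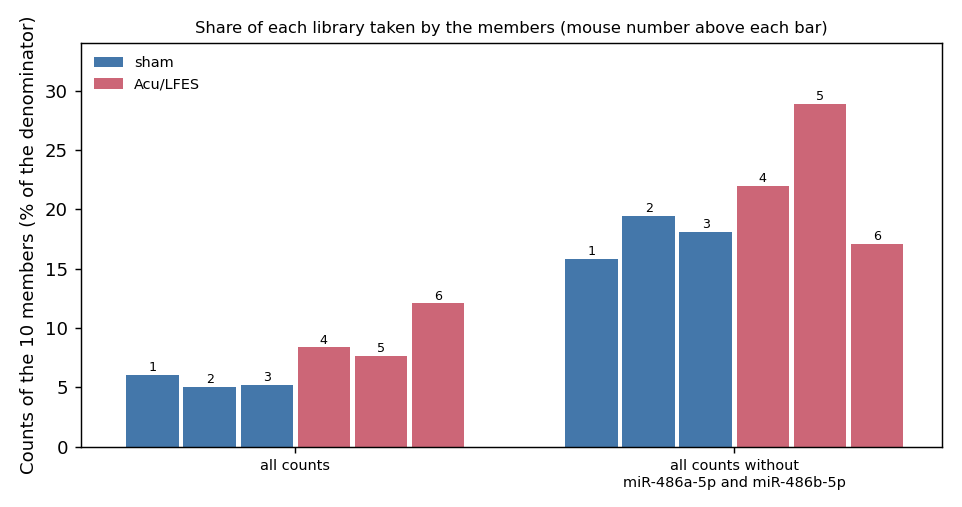
Counts of the 10 members as a percentage of all counts (left) and of all counts without miR-486a-5p and miR-486b-5p (right), 1 bar per mouse. Sham and Acu/LFES bars do not overlap on the left, from 5.07% to 6.07% against 7.67% to 12.1%, and overlap on the right.

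Since members of both clusters are known in red cells, the listed red cell markers were read beside them. miR-451a, the most red-cell-restricted of them, was at 1043 ± 316 CPM with sham and 1319 ± 513 CPM with Acu/LFES, with a log2 fold change of 0.34 and a standard error of 0.34. miR-16-5p was at 7628 ± 458 and 8461 ± 2210 CPM, a log2 fold change of 0.15 with a standard error of 0.25. The 2 miR-486 rows had the opposite sign, with 435700 ± 146800 CPM with sham and 276500 ± 206700 CPM with Acu/LFES in each row, a log2 fold change of -0.66 with a standard error of 0.64. Of the 6 listed markers 5 were tested, with a median log2 fold change of 0.15 and none at an unadjusted p under 0.05, and miR-144-3p was at 0 in every sham mouse. Their summed level, set mostly by miR-486a-5p and miR-486b-5p, ranged from 564100 to 1147000 CPM in sham mice and from 147000 to 972300 CPM in Acu/LFES mice (levels scaled by a TMM factor under 1 can add up to more than 1e6). The 2 miR-486 rows hold identical counts in every mouse. The same values thus enter the sum, the median, the library totals and the shares of all counts once for each row. Reads were not examined, so how they came to be listed in both rows was not tested.

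The ratio of each cluster's members to miR-451a and to miR-16-5p was put to the exact permutation test, and all 4 ratios overlapped between the groups (p from 0.6 to 1, and 1 for each after Benjamini-Hochberg adjustment). For miR-106b-25 the log2 ratio to miR-451a averaged 5.53 ± 0.26 with sham and 5.33 ± 0.46 with Acu/LFES, and that to miR-16-5p 2.61 ± 0.14 and 2.61 ± 0.52. For miR-17-92 the log2 ratio to miR-451a averaged 4.28 ± 0.18 and 4.29 ± 0.88, and that to miR-16-5p 1.36 ± 0.25 and 1.57 ± 0.97. Mean differences thus ran from -0.20 to 0.21, and mouse 5 was highest for both ratios of miR-17-92. How much red cells contributed to the members was not tested. White cell and platelet markers, 4 of 4 tested, had a summed level of 6278 to 7325 CPM in sham mice and 4775 to 6816 CPM in Acu/LFES mice. The liver marker miR-122-5p ranged from 7325 to 20830 CPM and from 1693 to 15310 CPM, and the 3 muscle markers summed to between 10090 and 11260 CPM and between 7475 and 12430 CPM. None of these markers had an unadjusted p under 0.05 in edgeR's test.

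Among the 115 other miRNAs with a mean of at least 100 CPM, those with the log2 profile nearest to the miR-106b-25 sum over the 6 mice were miR-1198-5p, miR-128-3p and miR-10b-5p. Their root mean square differences from it, after centering, were 0.14, 0.14 and 0.17 log2 units, against a median of 0.47 for all 115. The profile of the miR-17-92 sum was less closely matched. Its nearest were miR-1957a, at 0.22, miR-574-3p, at 0.27, and miR-1198-5p, at 0.30, against a median of 0.61. Like the sum, each of them was highest in mouse 5, with 3587, 2795 and 936 CPM. They were picked for likeness to the sum, so the shared peak is no separate result.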

How the data were processed

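Small RNA of serum exosomes was sequenced in 3 sham and 3 Acu/LFES mice, grouped by their sample titles. The table that the authors deposited holds unnormalized whole-number counts, with a row for each mature miRNA and a column for each mouse. The submitters' processing notes name bcl2fastq 1, cutadapt 1.6 and DESeq2 1.26.0. The aligner, counter, annotation and mismatches allowed are not given in the sources used here, and the last of these bears on members that differ by 1 to 4 bases.

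edgeR 4.0.16 in R 4.3.3 gave TMM factors and the quasi-likelihood test on all rows passing its default filter, with Benjamini-Hochberg adjustment and a threshold of 0.05. Standard errors come from the F statistic. All 1982 rows were kept, including 67 not named as mouse, which hold 104 counts in all. Sums, ratios and shares use the deposited counts. The fit was first tested on simulated data with added log2 changes of 1, 2 and 3. At an adjusted p under 0.05 it called 0 of 46, 17 of 44 and 37 of 53 of the changed rows tested, in that order. A change of 1 log2 unit in a member could thus be missed. Sequences are from RefSeq and hosts from GENCODE M21, both on GRCm38, which was not matched to a build of the counts. No pair of libraries agreed within sampling noise. Figures used matplotlib 3.10.9.

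The members and lists were chosen with earlier results of these data known. Named were the 10 members, listed cluster and same-seed rows with at least 100 counts (rarer ones, such as miR-20b-5p, were added after their values were seen), marker rows and the 3 nearest profiles of each cluster sum. The ratio of miR-363-3p to miR-92a-3p was left out because miR-363-3p had at most 1 count. Arm ratios were added after the counts were seen. Alternatives were DESeq2 1.42.0, other scalings, other filters, collapsed rows and each mouse left out.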

Additional observations from a re-analysis of the deposited data

How the results depend on the processing

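The log2 fold changes of miR-17-5p, miR-19a-3p, miR-19b-3p, miR-25-3p, miR-93-5p and miR-106b-5p were positive under every alternative run for them, though with a mouse left out they ranged from 0.52 to 0.90, 1.41 to 3.02, 0.42 to 1.21, 0.03 to 0.33, 0.08 to 0.33 and 0.15 to 0.88 in that order, and no member had an adjusted p under 0.05 in any, including DESeq2. Relative to the median of all miRNAs in the same fit, not all stayed positive. With no filter, which adds rows with few counts, that median was 0.68 in place of 0.05. Relative to it miR-25-3p was at -0.52, miR-93-5p at -0.45 and miR-106b-5p at -0.11. Their own log2 fold changes, 0.165, 0.231 and 0.57, moved little from 0.12, 0.18 and 0.51 in the main fit. Relative to the median, miR-25-3p was also at -0.02 without sham mouse 1 and without Acu/LFES mouse 5. Members higher at an unadjusted p under 0.05 numbered 1, miR-17-5p, with total counts without miR-486 (log2 fold change 0.78, unadjusted p = 0.0481 in edgeR) and without Acu/LFES mouse 6, so from 0 to 1 with a mouse left out, and 0 in the other fits. In the fit without miR-486 20 of all miRNAs were higher at that level, and without mouse 6 13 were. miR-20a-5p, near 0, turned to -0.00548 with DESeq2, -0.0644 with upper-quartile factors, -0.0482 with scaling to miR-103-3p, -0.0161 with at least 10 counts in every library and -0.00039 with identical rows collapsed, and went from -0.15 to 0.23 with a mouse left out. Over the same 6 fits miR-18a-5p went from -1.60 to 0.53 and miR-92a-3p from -0.0376 to 0.71. The log2 differences of the sums, 0.12 for miR-106b-25, 0.33 for miR-17-92, 0.19 for the miR-17 seed and 0.19 for the miR-92 seed, became 0.68, 0.89, 0.75 and 0.76 with total counts, which move the median of all miRNAs by a like amount. With a mouse left out they went from 0.04 to 0.33, from -0.0014 to 0.64, from 0.08 to 0.34 and from 0.0083 to 0.45, and the miR-19 seed from 0.54 to 1.34.

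With a mouse left out, the log2 ratio differences went from -0.37 to 0.0472 for miR-106b-25 over miR-17-92, from -0.38 to 0.0545 for miR-106b-5p over miR-17-5p, from -2.15 to 1.34 for miR-18a-5p over miR-17-5p and from -0.38 to 0.0457 for miR-25-3p over miR-92a-3p. Without a pseudocount no ratio changed direction, and those with miR-18a-5p and miR-19a-3p had no value. Over all miRNAs, 0 had an adjusted p under 0.05 in edgeR, against 23 at an unadjusted p under 0.05, and 8 in DESeq2, none of them members. At an unadjusted p under 0.05, 15 were higher and 8 lower, which became 23 and 0 with total counts, 7 and 0 with scaling to miR-103-3p, 39 and 14 with no filter, 9 higher with at least 10 counts in every library, and 13 to 41 higher and 6 to 9 lower with a mouse left out, with 41 higher without sham mouse 1 and 24 without Acu/LFES mouse 5. The cause was not tested. Rare members are limited by depth, as with miR-363-3p. No paired analysis was possible because the groups share no mouse numbers.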
